A study of Mus musculus with 13 samples.

Results

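RNA of whole hearts from mice with ischaemia and reperfusion injury and no gene editing was set against RNA of hearts from sham-operated mice. The injured group joined the libraries of the IR virus and IR groups, titled as 3 replicates each, and the control group was the 3 Sham libraries, so 9 of the 13 libraries of the series entered the comparison. All hearts came from male wild-type C57Bl6 mice aged 17 weeks. IR virus mice were 12 weeks old when they had the injury and received a control virus, IR mice had the injury at that age and received no injection, and Sham mice had the sham operation at that age and received no injection. Hearts were therefore taken 5 weeks after surgery. The 4 IR edit libraries, from injured mice given a functional editing system for CaMKIIδ (a calcium- and calmodulin-dependent kinase of heart muscle), took no part in the fit, the filter or the scaling. The labels name neither the kind nor the dose of the control virus, and no Sham mouse received it. They do not say whether each library came from its own mouse, and p-values measure the spread between these libraries, which may in part be technical.

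Ischaemia is a block of coronary blood flow, and reperfusion is its return. Heart muscle that dies is replaced over the following weeks by a scar, which activated fibroblasts build from collagens, matricellular proteins such as periostin and thrombospondins, and enzymes that cross-link the fibres. Surviving muscle cells under load switch on genes of the foetal heart, among them those of the natriuretic peptides, the slow myosin heavy chain and skeletal actin, and commonly lower genes of repolarising potassium channels and of fatty acid use.

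The libraries held 22860006 to 24090431 counts in injured hearts and 22784417 to 27265276 in Sham hearts. Of these counts, 34.1% ± 1.69 in injured hearts (SD, n = 6) and 36.3% ± 1.93 in Sham hearts (SD, n = 3) fell on the mitochondrial genome. Before any result, 4 of the 6 injured libraries stood apart by being alike: IR virus replicates 1 and 3 and IR replicates 1 and 2. Over the 500 genes that varied most among the Sham and IR edit libraries, these 4 differed from each other by a root mean square of 0.270 to 0.462 on the log2 scale, where counting error alone gives at most 0.204. The other 9 pairs of injured libraries, each of which includes IR virus replicate 2 or IR replicate 3, differed by 0.560 to 0.700. Pairs of Sham libraries differed by 0.689 to 0.913, but the genes were picked partly for their spread among Sham libraries. The closest pair was IR virus replicate 3 and IR replicate 1, which carry different labels. The differences within the 4 were larger than counting error. The median chi-square of a gene was 1.52 to 5.67 times that expected from counting. It was 1.52 to 1.81 times in pairs among IR virus replicate 3 and IR replicates 1 and 2. In pairs of these with IR virus replicate 1 it was 4.99 to 5.67 times, within the range of the other 9 injured pairs. By this measure IR virus replicate 1 was therefore not set apart with them. An excess over counting error does not show that libraries came from separate hearts. All 6 libraries were kept as separate samples. Whether the 4 came from separate hearts cannot be told from the labels, and counts of calls are therefore also given with the 4 averaged into 1 library, a fit with 3 injured and 3 Sham libraries.

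**Figure D1:**
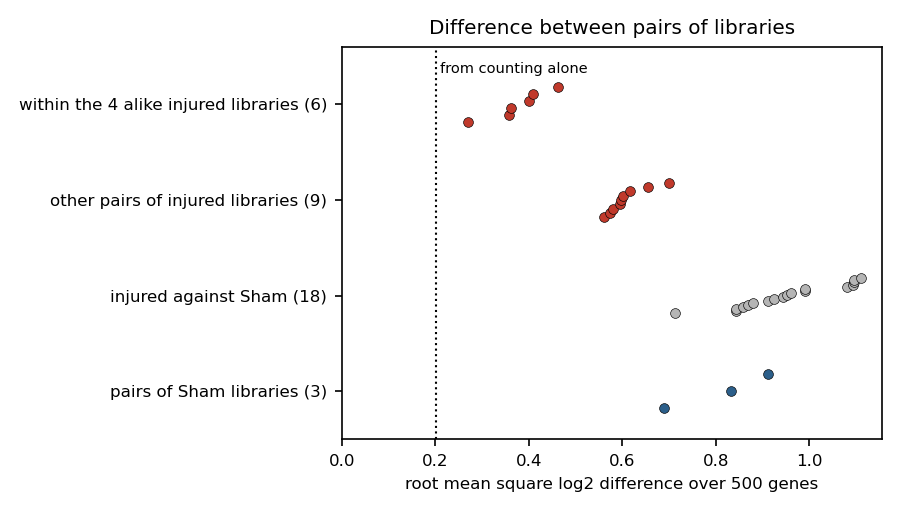
Root mean square difference in log2 CPM (prior count 2) between 2 libraries over 500 genes, 1 point per pair, by kind of pair with the number of pairs in brackets; the dotted line is the mean difference that counting error alone gives the 4 alike libraries. The 6 pairs among the 4 alike injured libraries lie between 0.270 and 0.462, below all 9 other injured pairs.

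Markers of the labelled tissue were present throughout. The 7 cardiomyocyte markers (Myh6, Tnnt2, Tnni3, Actc1, Ryr2, Pln and Myl2) summed to 37555 to 43407 CPM in injured hearts and 38949 to 47213 CPM in Sham hearts, where CPM is the count scaled to a fixed library total after TMM normalization. The 5 fibroblast markers (Col1a1, Pdgfra, Dcn, Lum and Tcf21) summed to 769 to 1028 CPM in injured hearts and 705 to 738 CPM in Sham hearts. The 4 atrial markers (Myl7, Myl4, Sln and Nppa) summed to 147 to 224 CPM in injured hearts and 18.5 to 78.7 CPM in Sham hearts. Sham replicate 3 was low in atrial muscle genes: Myl7, the atrial light chain, stood at 20.02 to 31.5 CPM in injured hearts, against 23.4, 22.3 and 1.56 CPM in Sham hearts. Markers of several other tissues were at or near 0: the 5 skeletal muscle markers summed to 0.601 to 1.38 CPM in injured and 0.946 to 1.35 CPM in Sham hearts, the 4 adipocyte markers to 0.508 to 2.42 and 0.0860 to 0.707 CPM with Ucp1 at 0 in all 9, and the lung pair to 0 in injured and at most 0.300 CPM in Sham hearts. The liver marker Alb had at most 0.946 CPM in injured hearts, against 9.20, 0 and 0 CPM in Sham hearts, so that Sham replicate 1 stood apart. The 3 red blood cell markers (Hba-a1, Hbb-bs and Alas2) summed to 124 to 210 CPM in injured hearts and 155 to 196 CPM in Sham hearts.

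Injured hearts carried more RNA of scar and muscle stress genes and less of several ion channel and metabolic genes. Of 15393 genes tested with edgeR, 439 passed an adjusted p of 0.05 (2.85%), of which 291 were higher in injured hearts (1.89%) and 148 lower (0.961%). The higher side held the larger changes: 91 of its genes differed at least 2-fold, against 14 on the lower side. In 405 of the 439 the injured and Sham libraries did not overlap, a separation found in 1330 of all genes tested (8.64%), in 694 of them with injured hearts higher (4.51%) and in 636 lower (4.13%). All 291 genes called higher were higher than Sham, and all 148 called lower were lower than Sham, in the IR virus hearts and in the IR hearts taken separately. Since the 439 genes were chosen on these same injured and Sham libraries, that describes the calls and tests nothing. With the 4 alike libraries averaged into 1, 45 of 15010 genes passed (0.3%), of which 35 were higher (0.233%) and 10 lower (0.0666%), and all 45 were among the 439. With the 3 closest averaged, IR virus replicate 3 and IR replicates 1 and 2, 143 of 15176 genes passed. All 143 were among the 439, 100 of them higher and 43 lower. With the 4 left out altogether, so that IR virus replicate 2 and IR replicate 3 faced Sham, 15 genes passed and 13 of them were among the 439. The count depended on single libraries too, at 286 without IR replicate 1, 273 without IR virus replicate 3 and 684 without IR replicate 3. In bulk RNA, more cells of a type and more RNA per cell cannot be told apart.

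**Figure D2:**
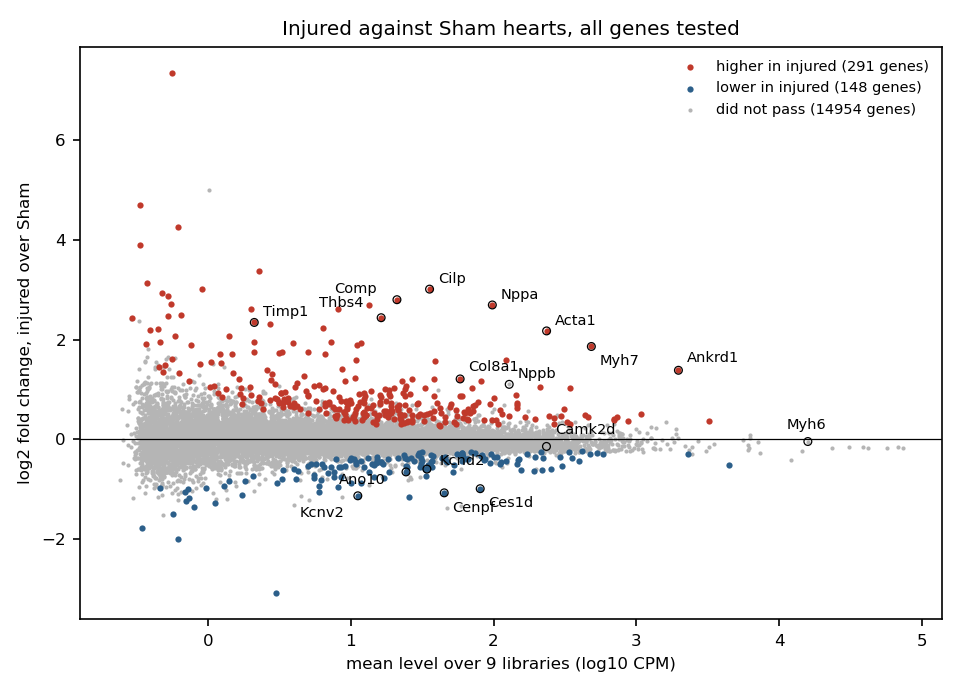
Log2 fold change of injured over Sham hearts (vertical axis) against the mean level over the 9 libraries (horizontal axis, log10 CPM), 1 point per gene tested. The 291 genes called higher reach further from 0 than the 148 called lower, and circles mark genes named in the text, called or not.

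Several stress genes of heart muscle were higher in injured hearts. Of 23 tested natriuretic peptide and stress genes, 11 rose (47.8%, against 1.89% of all genes tested) and none fell, all 23 fold changes were positive, and the median log2 fold change was 0.51, against -0.0023 over all genes tested. The 11 were Nppa, Ankrd1, Ankrd23, Rcan1, Xirp2, Acta1, Myh7, Mybpc2, Uchl1, Ctgf and Synpo2l, and leaving out any 1 library gave 11 to 13. With the 4 alike libraries averaged, 6 of the 23 passed: Nppa, Ankrd1, Xirp2, Acta1, Myh7 and Ctgf.

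Ankrd1 (chr19:36111961-36120099, minus strand, GRCm38, GENCODE M21), which encodes a stretch-responsive ankyrin repeat protein of the sarcomere and nucleus, had 2365, 1918 and 2644 CPM in IR virus hearts and 2749, 2713 and 2486 CPM in IR hearts, against 777, 1038 and 1034 CPM in Sham hearts. Every injured library lay above every Sham library by a wide margin (log2 fold change 1.38, SE 0.12, adjusted p = 0.000118), also with the alike libraries averaged (log2 fold change 1.30, adjusted p = 0.013). Nppa (chr4:148000722-148002079, plus strand), which encodes atrial natriuretic peptide, had 151, 145 and 151 CPM in IR virus hearts and 166, 132 and 73.8 CPM in IR hearts, against 23.5, 26.5 and 13.2 CPM in Sham hearts. The lowest injured value, in IR replicate 3, was still above the highest Sham value. For Nppa the log2 fold change was 2.69 (SE 0.25, adjusted p = 0.000162), and 2.54 with the alike libraries averaged (adjusted p = 0.0161). Sham replicate 3, lowest in Nppa, was the library low in atrial muscle genes, and without it the log2 fold change of Nppa was 2.46. Whether atrial tissue in the sample played a part in the Nppa values was not tested beyond that.

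Myh7 (chr14:54970684-54994626, minus strand), the slow myosin heavy chain, had 817, 645 and 719 CPM in IR virus hearts and 684, 646 and 316 CPM in IR hearts, against 201, 182 and 144 CPM in Sham hearts. IR replicate 3 was again the lowest of the injured libraries, and the groups did not overlap. For Myh7 the log2 fold change was 1.86 (SE 0.23, adjusted p = 0.000732), and 1.67 with the alike libraries averaged (adjusted p = 0.0406). The neighbouring Myh6, the fast heavy chain that dominates the adult mouse ventricle, had 15706 ± 1453 CPM in injured hearts and 16175 ± 3164 CPM in Sham hearts (SD, n = 6 and n = 3), overlapped and did not pass. For Myh6 the log2 fold change was -0.042 (SE 0.11, adjusted p = 0.89). Acta1 (chr8:123891769-123894751, minus strand), skeletal alpha-actin, had 410.5, 315 and 315 CPM in IR virus hearts and 289, 299.8 and 276 CPM in IR hearts, against 45.2, 122 and 43.7 CPM in Sham hearts. Sham replicate 2 lay well above the other Sham libraries, yet below every injured one. For Acta1 the log2 fold change was 2.17 (SE 0.28, adjusted p = 0.00114), and 2.12 with the alike libraries averaged (adjusted p = 0.0426). Nppb (chr4:147985788-147987205, plus strand), which encodes brain natriuretic peptide and sits next to Nppa, had 159, 110.4 and 156 CPM in IR virus hearts and 172, 167 and 175 CPM in IR hearts, against 22.5, 116 and 80.5 CPM in Sham hearts. Its Sham values spread widely, the groups overlapped and it did not pass. For Nppb the log2 fold change was 1.102 (SE 0.33, adjusted p = 0.0992). With 1 library left out it ranged from 0.67 to 1.61, and Nppb passed in 2 such fits (lowest adjusted p = 0.0272).

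The 250 bases before the RefSeq start of these 4 stress genes are shown because 3 of the 4 passed the test and Nppb, which did not, is the neighbour of Nppa; capitals mark 3 motifs. These are the MCAT motif bound by TEAD factors, searched on both strands (CATTCC or GGAATG), a core GATA motif, searched on both strands (GATAA or TTATC), and a TATA motif, searched on the strand shown (TATAAA). The RefSeq start can differ from the GENCODE gene start given above. All are RefSeq sequence of GRCm38.p6, written 5′ to 3′ along the gene.
Ankrd1, chr19:36119845-36120094, minus strand: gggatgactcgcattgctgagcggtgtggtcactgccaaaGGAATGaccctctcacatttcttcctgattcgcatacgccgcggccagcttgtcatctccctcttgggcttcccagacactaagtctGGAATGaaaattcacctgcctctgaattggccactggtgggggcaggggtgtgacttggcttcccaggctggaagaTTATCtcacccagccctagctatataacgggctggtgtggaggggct
Nppa, chr4:148000472-148000721, plus strand: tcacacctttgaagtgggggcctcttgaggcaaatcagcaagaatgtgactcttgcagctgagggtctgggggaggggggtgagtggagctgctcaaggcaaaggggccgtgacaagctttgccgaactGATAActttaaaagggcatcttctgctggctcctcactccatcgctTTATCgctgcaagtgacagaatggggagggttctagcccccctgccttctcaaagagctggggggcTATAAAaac
Nppb, chr4:147985650-147985899, plus strand: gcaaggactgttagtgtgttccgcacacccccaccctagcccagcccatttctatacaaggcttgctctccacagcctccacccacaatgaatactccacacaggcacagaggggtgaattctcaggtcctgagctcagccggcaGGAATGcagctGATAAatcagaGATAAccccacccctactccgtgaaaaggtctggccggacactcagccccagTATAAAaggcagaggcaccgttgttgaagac
Acta1, chr8:123894776-123895025, minus strand: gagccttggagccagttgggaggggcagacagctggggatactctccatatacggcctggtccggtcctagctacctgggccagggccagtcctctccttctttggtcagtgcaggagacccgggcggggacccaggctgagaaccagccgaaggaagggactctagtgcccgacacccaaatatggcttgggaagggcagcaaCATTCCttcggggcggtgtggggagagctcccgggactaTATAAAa
Ankrd1 held the MCAT motif in 2 places, 210 and 123 bases before the start, Nppb held it 105 bases before and Acta1 46 bases before, whereas the Nppa window held no such letters. The core GATA motif stood in 2 places each in Nppa and Nppb and in 1 place in Ankrd1. Of the 11 stress genes that rose, 10 had a promoter in the RefSeq table, and 5 of these 10 held an MCAT motif in this window, against 12.6% of all 32851 promoter windows and 13.2% of the 10782 tested genes that had one. Of the whole stress list, called or not, 18 of 23 genes had a window and 8 of these held an MCAT motif. Of the 213 genes called higher that had a window, 41 held an MCAT motif (19.2%), 39 a GATA motif (18.3%) and 21 a TATA motif (9.86%). Among the 10 stress genes that rose and had a window, the GATA motif was in 3, against 22.6% of all windows and 17.7% of those of tested genes, and the TATA motif in 2, against 7.59% and 5.06%. These are matches of letters and not sites of binding.

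Scar genes were higher in injured hearts across several families. Of 31 tested matricellular and activated fibroblast genes, 22 rose (71%, against 1.89% of all genes tested) and none fell (median log2 fold change 0.99). Leaving out any 1 library gave 19 to 25 that rose. Of the 22, 7 also passed with the 4 alike libraries averaged: Cilp, Thbs4, Comp, Sfrp2, Ltbp2, Timp1 and Ctgf. Lists share members, so their counts are not independent. Ctgf is also in the stress list and Timp1 in the metalloproteinase list. Ltbp2 is also in the TGF-beta list, Sfrp2 in the Wnt list and Comp in the cartilage list. Timp1, Ltbp2, Sfrp2 and Comp are each the 1 gene of that other list that passed with the alike libraries averaged.

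Cilp (chr9:65265180-65280605, plus strand), a matrix protein of cartilage that activated cardiac fibroblasts also make, had 66.7, 30.8 and 65.5 CPM in IR virus hearts and 54.1, 56.1 and 29.1 CPM in IR hearts, against 6.16, 7.74 and 4.81 CPM in Sham hearts. IR virus replicate 2 and IR replicate 3 had the lowest levels of the injured hearts, and all 6 were several times the Sham values. For Cilp the log2 fold change was 3.01 (SE 0.29, adjusted p = 0.000172), and 2.69 with the alike libraries averaged (adjusted p = 0.013). Thbs4 (chr13:92751590-92794818, minus strand), a thrombospondin of the matrix, had 27.1, 14.3 and 26.6 CPM in IR virus hearts and 25.5, 26.6 and 14.6 CPM in IR hearts, against 4.21, 4.47 and 3.73 CPM in Sham hearts, and showed the same split among injured hearts. For Thbs4 the log2 fold change was 2.44 (SE 0.24, adjusted p = 0.000172), and 2.15 with the alike libraries averaged (adjusted p = 0.013). Comp (chr8:70373558-70382066, plus strand), the related thrombospondin of cartilage, had 43.7, 19.0 and 37.8 CPM in IR virus hearts and 32.9, 30.5 and 13.1 CPM in IR hearts, against 3.61, 5.59 and 3.54 CPM in Sham hearts. For Comp the log2 fold change was 2.80 (SE 0.35, adjusted p = 0.000942), and 2.43 with the alike libraries averaged (adjusted p = 0.0349). Postn (chr3:54361109-54391037, plus strand), periostin, the usual mark of activated fibroblasts, had 168, 102 and 192 CPM in IR virus hearts and 202, 191 and 95.9 CPM in IR hearts, against 53.7, 49.8 and 54.4 CPM in Sham hearts. Its Sham values were close together and its injured values fell into the same higher and lower sets, without overlap with Sham. For Postn the log2 fold change was 1.59 (SE 0.22, adjusted p = 0.00165). With the alike libraries averaged Postn did not pass (log2 fold change 1.29, adjusted p = 0.0532).

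Timp1, the inhibitor of metalloproteinases, stood at 2.06, 2.90 and 3.82 CPM as the lowest, median and highest injured values, against 0.451, 0.559 and 0.707 CPM in Sham hearts. For Timp1 the log2 fold change was 2.34 (SE 0.26, adjusted p = 0.000368), and 2.16 with the alike libraries averaged (adjusted p = 0.0207). Spp1, osteopontin, a secreted protein of macrophages and fibroblasts, stood at 1.33, 3.03 and 4.12 CPM in injured hearts, against 0.488, 0.172 and 0.707 CPM in Sham hearts. For Spp1 the log2 fold change was 2.61 (SE 0.45, adjusted p = 0.00631), and 2.20 with the alike libraries averaged (adjusted p = 0.122). Ctgf, the connective tissue growth factor of the CCN family, had 84.8 ± 10.1 CPM in injured hearts and 41.8 ± 6.04 CPM in Sham hearts. For Ctgf the log2 fold change was 1.02 (SE 0.11, adjusted p = 0.000368), and 0.91 with the alike libraries averaged (adjusted p = 0.0276).

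All 19 collagen genes of the fibrillar and network list had positive fold changes (median 0.86), and 13 rose (68.4%, against 1.89% of all genes tested): Col1a1, Col1a2, Col3a1, Col5a2, Col6a2, Col6a3, Col4a1, Col8a1, Col8a2, Col11a1, Col12a1, Col14a1 and Col16a1. Without Sham replicate 3 the count was 8, and leaving out the other libraries in turn gave 9 to 15. With the 4 alike libraries averaged none of the 19 passed, while their median log2 fold change was 0.67. Col8a1 (chr16:57624258-57754737, minus strand), a short-chain collagen of vessel walls and scars, had 79.9, 53.4 and 85.2 CPM in IR virus hearts and 82.2, 82.5 and 48.9 CPM in IR hearts, against 32.3, 29.3 and 31.6 CPM in Sham hearts. The Sham hearts lay within a narrow range and the injured hearts formed a higher set and a lower set above it. For Col8a1 the log2 fold change was 1.21 (SE 0.17, adjusted p = 0.0016), and 0.98 with the alike libraries averaged (adjusted p = 0.0547). Col12a1, a collagen that decorates fibrils, had 12.3, 5.96 and 13.1 CPM in IR virus hearts and 10.3, 11.5 and 5.29 CPM in IR hearts, against 2.29, 3.10 and 2.12 CPM in Sham hearts (log2 fold change 1.96, SE 0.30, adjusted p = 0.00259; averaged, log2 fold change 1.62, adjusted p = 0.0707), and its relative Col14a1 had 47.0 ± 9.88 CPM in injured hearts and 20.1 ± 4.45 CPM in Sham hearts. For Col14a1 the log2 fold change was 1.22 (adjusted p = 0.00213), and 1.02 with the alike libraries averaged (adjusted p = 0.0819).

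Among enzymes that process collagen, 5 of 18 tested genes rose (27.8%, against 1.89% of all genes tested) and none fell, with a median of 0.29. Lox, lysyl oxidase, which cross-links collagen and elastin, had 13.3 ± 3.55 CPM in injured hearts and 5.67 ± 0.543 CPM in Sham hearts. For Lox the log2 fold change was 1.24 (SE 0.21, adjusted p = 0.00539). Its relative Loxl3 had 7.31 ± 1.78 CPM in injured hearts and 3.46 ± 0.156 CPM in Sham hearts. For Loxl3 the log2 fold change was 1.08 (adjusted p = 0.00804). Adamts2, which trims procollagen, had 28.4 ± 5.18 CPM in injured hearts and 15.6 ± 0.656 CPM in Sham hearts. For Adamts2 the log2 fold change was 0.86 (adjusted p = 0.00342). None of the 18 passed with the alike libraries averaged. Of 11 small leucine-rich proteoglycans, which coat collagen fibrils, 4 rose (36.4%, against 1.89% of all genes tested) and none fell (median 0.55). Bgn, biglycan, had 323, 223 and 283 CPM in IR virus hearts and 257, 256 and 196 CPM in IR hearts, against 144, 128 and 102 CPM in Sham hearts. For Bgn the log2 fold change was 1.04 (SE 0.14, adjusted p = 0.00144), and 0.90 with the alike libraries averaged (adjusted p = 0.0463). Fmod, fibromodulin, had 14.1 ± 5.55 CPM in injured hearts and 4.64 ± 0.956 CPM in Sham hearts (log2 fold change 1.59, adjusted p = 0.012) and did not pass without Sham replicate 3 (adjusted p = 0.0568). The count of 4 was 2 without any 1 of IR virus replicates 1 and 3, IR replicates 1 and 2 and Sham replicates 2 and 3.

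Of 27 tested genes of TGF-beta and activin signalling, the pathway that drives fibroblasts to make matrix, 6 rose (22.2%, against 1.89% of all genes tested) and none fell. The largest log2 fold change of the list, 3.38, was also the largest of the atrial list, and Sham replicate 3 was low in atrial muscle genes. Whether atrial tissue in the sample played a part in that value was not tested. The ligands Tgfb2, with 25.1 ± 3.29 CPM in injured hearts and 15.6 ± 1.90 CPM in Sham hearts, and Tgfb3, with 22.2 ± 3.70 CPM in injured hearts and 12.2 ± 0.556 CPM in Sham hearts, were higher in all 6 injured hearts than in any Sham heart (log2 fold changes 0.70 and 0.87, adjusted p = 0.00486 and 0.00251). Such a separation was found in 4.51% of all genes tested. Ltbp2 encodes a protein of elastic fibres and is in this list by its family name, latent TGF-beta binding protein. It had 29.0, 13.5 and 21.7 CPM in IR virus hearts and 19.6, 17.9 and 10.2 CPM in IR hearts, against 3.76, 3.27 and 1.51 CPM in Sham hearts. For Ltbp2 the log2 fold change was 2.69 (SE 0.33, adjusted p = 0.000732), and 2.41 with the alike libraries averaged (adjusted p = 0.0276). The count of 6 was 3 without any 1 of IR virus replicates 1 and 3 and Sham replicates 1 and 2, and 1 with the alike libraries averaged. Of 15 metalloproteinases and inhibitors, 3 rose (20%, against 1.89% of all genes tested) and none fell: Timp1, Mmp3 (log2 fold change 0.70, adjusted p = 0.0124) and the gelatinase Mmp2 (log2 fold change 0.54, adjusted p = 0.0234). Mmp3 did not pass without Sham replicate 2 (adjusted p = 0.061), nor Mmp2 without IR virus replicate 3, IR replicate 1 or Sham replicate 3 (adjusted p at most 0.0951), and the count was 6 without IR replicate 3 and 1, Timp1, with the alike libraries averaged.

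Secreted antagonists of Wnt signalling were among the genes that rose: of 15 tested Wnt modulators and ligands (median 0.035) 4 rose (26.7%, against 1.89% of all genes tested) and none fell, namely Sfrp1, Sfrp2, Frzb and Dkk3, and leaving out any 1 library also gave 4. Sfrp2 (chr3:83766321-83774316, plus strand) had 16.03, 6.71 and 12.9 CPM in IR virus hearts and 13.3, 14.3 and 4.99 CPM in IR hearts, against 1.69, 2.32 and 1.56 CPM in Sham hearts (log2 fold change 2.61, SE 0.36, adjusted p = 0.00159; averaged, log2 fold change 2.21, adjusted p = 0.0485), which again placed IR virus replicate 2 and IR replicate 3 lowest among injured hearts. Frzb had 11.2 ± 2.21 CPM in injured hearts and 4.98 ± 0.721 CPM in Sham hearts (log2 fold change 1.17, adjusted p = 0.00181) and Sfrp1 had 31.1 ± 7.08 CPM in injured hearts and 16.4 ± 1.03 CPM in Sham hearts (log2 fold change 0.92, adjusted p = 0.00865), neither of which passed with the alike libraries averaged (adjusted p = 0.0649 and 0.181).

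**Figure D3:**
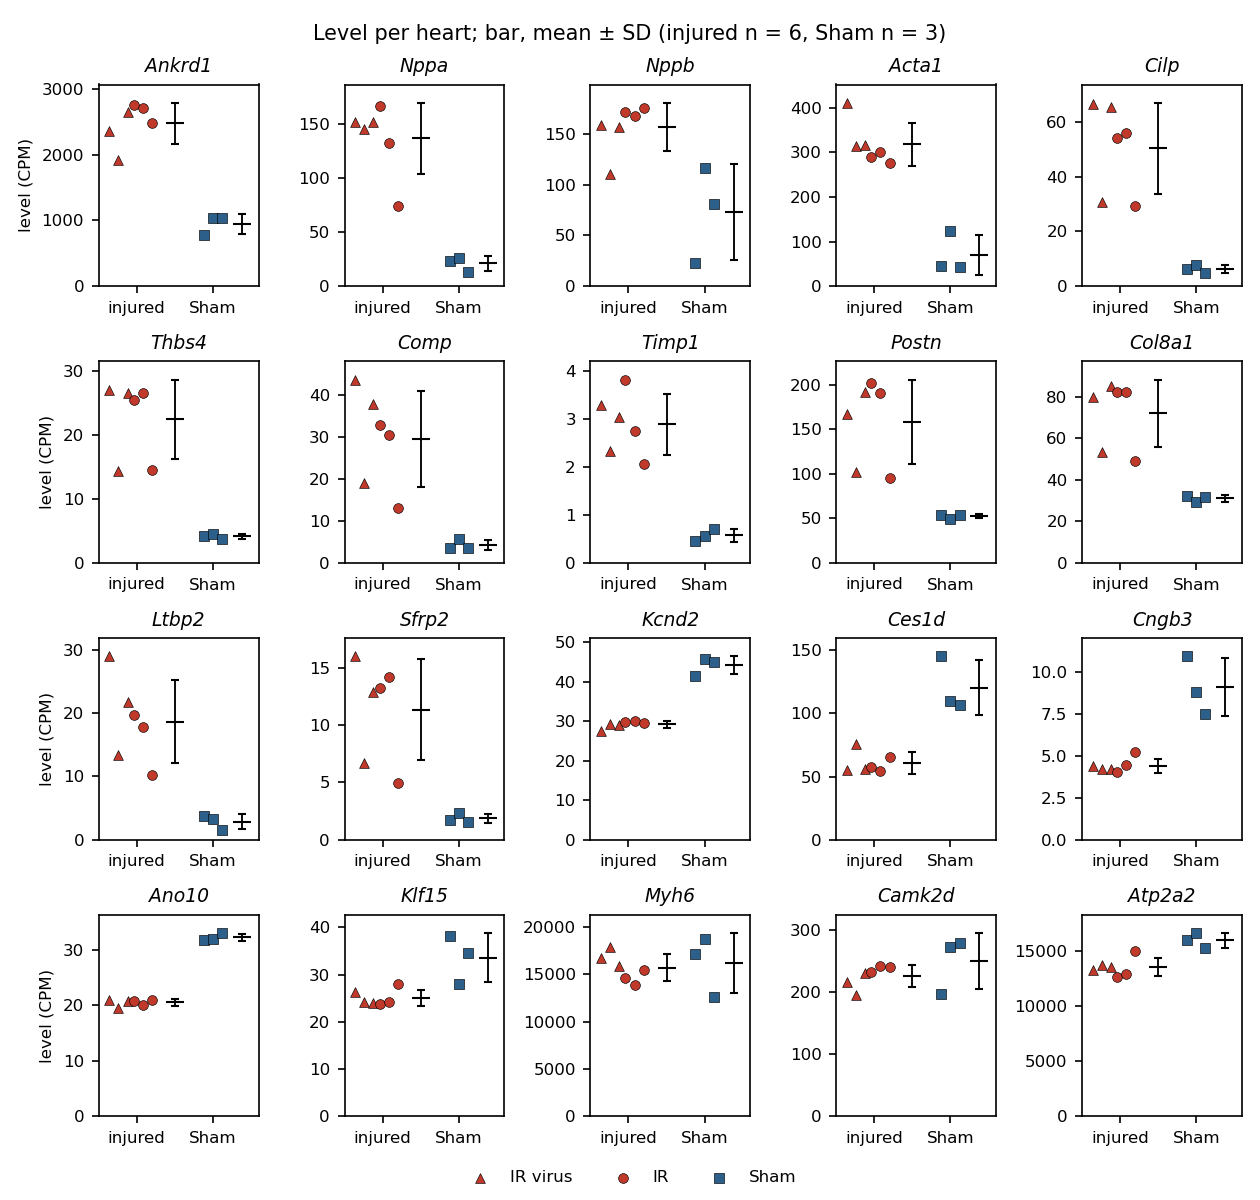
Level in CPM per heart for 20 genes, each panel from 0, with injured hearts left (triangles IR virus, circles IR) and Sham hearts right (squares), and bars for mean ± SD (n = 6 and n = 3). Scar genes such as Cilp, Thbs4, Postn and Col8a1 split the injured hearts into 4 higher and 2 lower ones, IR virus replicate 2 and IR replicate 3, while Kcnd2 and Ano10 stand at nearly the same level in all 6.

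The injured hearts differed among themselves in the size of the scar gene change. The median over the 291 genes called higher of log2 CPM minus the Sham mean of each gene was 0.85, 0.59 and 0.82 in IR virus hearts and 0.78, 0.80 and 0.54 in IR hearts, against -5.8e-05, 0.075 and -0.051 in Sham hearts. IR virus replicate 2 and IR replicate 3 were the lowest 2, and these are the libraries outside the 4 alike ones. For the matricellular list the same measure was 1.27, 0.73 and 1.15 in IR virus hearts and 1.11, 1.19 and 0.69 in IR hearts, against 0.028, 0.18 and -0.16 in Sham hearts. The stress list did not follow that order, with 0.70, 0.43 and 0.63 in IR virus hearts and 0.53, 0.50 and 0.67 in IR hearts, so that IR replicate 3 was the second highest there. Since the 291 genes were chosen as higher in injured hearts, their medians describe these libraries and test nothing.

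**Figure D4:**
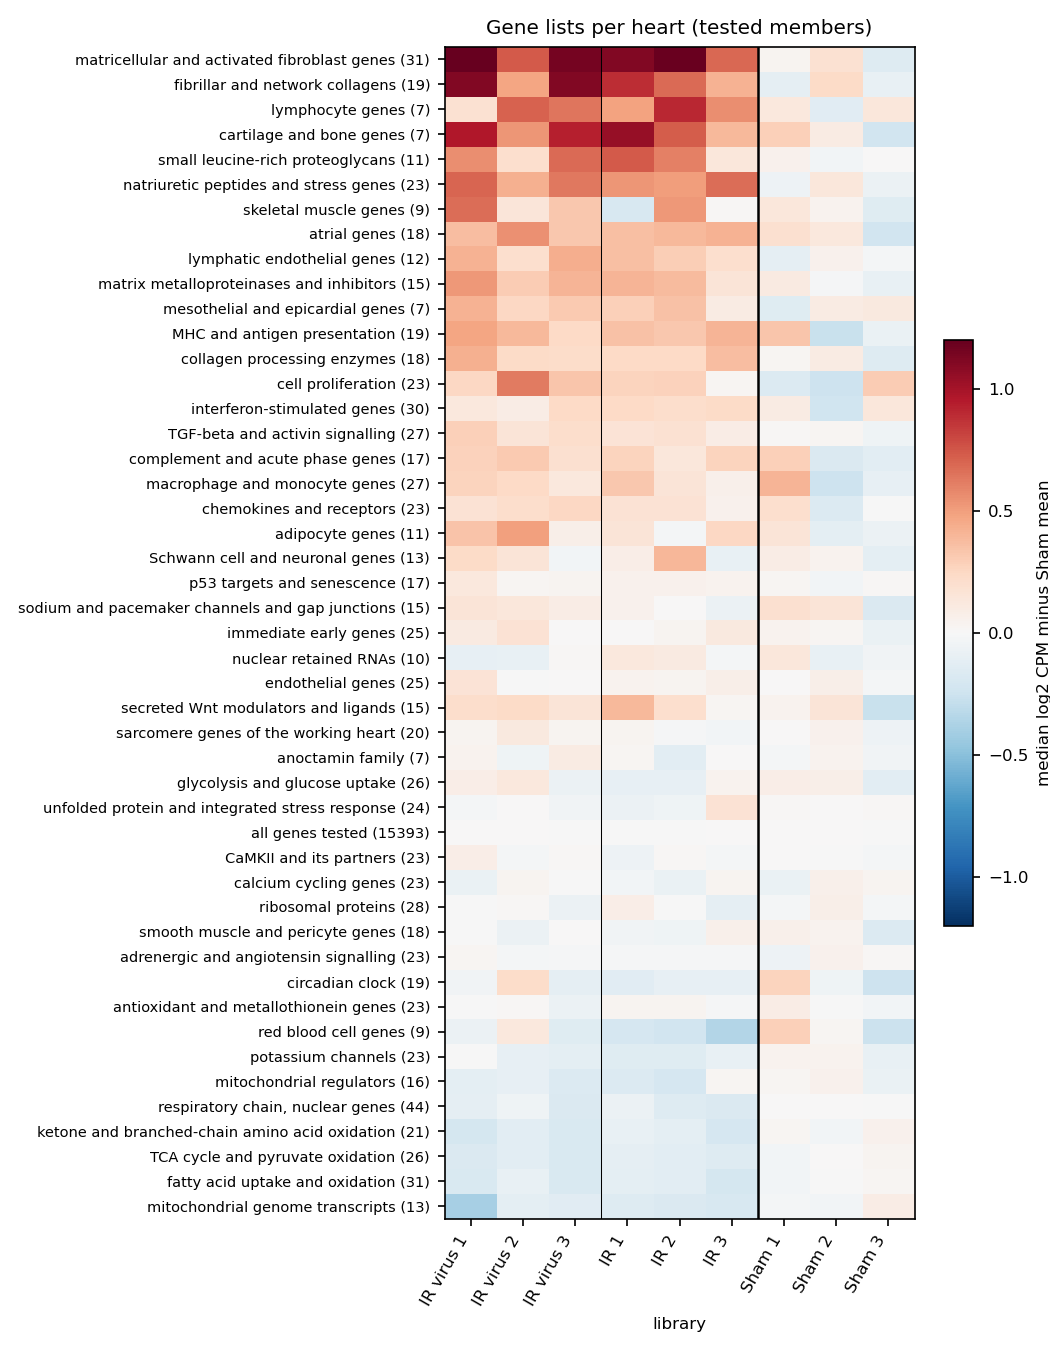
Median over the tested members of each gene list (number in brackets) of log2 CPM minus the Sham mean of the gene, per library, for lists with at least 5 tested members, ordered by the median fold change. The rows of collagens and matricellular genes are red in every injured library and palest in IR virus replicate 2 and IR replicate 3, and the rows of fatty acid, TCA cycle and respiratory chain genes are faintly blue in all 6.

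No gene passed the test between the IR virus and IR hearts. IR virus hearts against IR hearts gave 0 called genes of 15393 in edgeR (0%), with a smallest adjusted p of 0.908, 639 genes at an unadjusted p under 0.05, and 0 called genes in DESeq2. Without a filter on low counts 43 genes passed. Among the 439 genes that separated injured from Sham hearts, 15 had an unadjusted p under 0.05 for IR virus against IR. The fit that chose the 439 counts spread among injured libraries as error and so favours genes alike in both groups. That number therefore tests nothing. With 3 hearts on each side, and 2 of each 3 among the alike libraries, the lack of calls does not show that the virus had no effect.

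Repolarising potassium channels held several of the lower genes. Of 23 tested channels and subunits 4 fell (17.4%, against 0.961% of all genes tested) and 1 rose (4.35%, against 1.89%). Leaving out any 1 library gave 4 or 5 that fell. Kcnd2 (chr6:21215503-21729805, plus strand), the pore of the transient outward current of mouse ventricle, had 27.4, 29.4 and 29.1 CPM in IR virus hearts and 29.8, 30.0 and 29.6 CPM in IR hearts, against 41.5, 45.8 and 45.1 CPM in Sham hearts. The 6 injured values lay within a few CPM of each other and well below Sham. For Kcnd2 the log2 fold change was -0.59 (SE 0.062, adjusted p = 0.000306), and -0.59 with the alike libraries averaged (adjusted p = 0.0242). Kcnv2, a silent subunit that modifies other channels, had 7.68, 9.17 and 6.01 CPM in IR virus hearts and 6.65, 6.56 and 12.2 CPM in IR hearts, against 21.6, 14.8 and 16.2 CPM in Sham hearts. For Kcnv2 the log2 fold change was -1.13 (SE 0.19, adjusted p = 0.00439), and -0.91 with the alike libraries averaged (adjusted p = 0.122). Kcnj3, a subunit of the acetylcholine-activated channel, had 99.6, 114 and 110.4 CPM in IR virus hearts and 100.4, 106 and 120.2 CPM in IR hearts, against 138, 149 and 155 CPM in Sham hearts. For Kcnj3 the log2 fold change was -0.44 (SE 0.072, adjusted p = 0.0043). Abcc9, the regulatory subunit of the ATP-sensitive channel, had 542 ± 14.9 CPM in injured hearts and 665 ± 17.2 CPM in Sham hearts. For Abcc9 the log2 fold change was -0.30 (adjusted p = 0.00775). Of the 4, Kcnd2 alone passed with the alike libraries averaged. The channel that rose was Kcnj14, an inward rectifier (log2 fold change 1.32), which passed without IR replicate 3 and in no other fit that left out 1 library.

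Few genes of calcium handling passed, and the kinase at the centre of the study did not. Camk2d (chr3:126596302-126846326, plus strand), which encodes CaMKIIδ, had 217, 196 and 232 CPM in IR virus hearts and 233, 243 and 241 CPM in IR hearts, against 198, 274 and 279 CPM in Sham hearts, with overlapping groups and no call. For Camk2d the log2 fold change was -0.14 (SE 0.10, adjusted p = 0.526). None of the 23 genes of CaMKII and its partners passed in edgeR, 8 had an unadjusted p under 0.05, and DESeq2 called 1. Their smallest p-values belonged to Camk1d (log2 fold change 0.38, adjusted p = 0.0766), Nfatc4 (log2 fold change 0.40, adjusted p = 0.11) and Camk2b (log2 fold change 0.29, adjusted p = 0.13). Camk1d passed in 1 fit that left out 1 library (adjusted p = 0.0328). Of 23 calcium cycling genes, 1 fell (4.35%, against 0.961% of all genes tested). It was Jph1, junctophilin 1 of the junctional membrane (log2 fold change -0.32, adjusted p = 0.0387), a call that held in the fit without IR replicate 3 and in none of the other 8 that left out 1 library (adjusted p at most 0.152), and it did not pass with the alike libraries averaged (adjusted p = 0.371). Atp2a2, the SERCA pump of the sarcoplasmic reticulum, had 13328, 13725 and 13515 CPM in IR virus hearts and 12630.0, 12966 and 15017 CPM in IR hearts, against 16029, 16603 and 15284 CPM in Sham hearts. Its inhibitor Pln, phospholamban, had 1959, 2058 and 2389 CPM in IR virus hearts and 2374, 2415 and 2391 CPM in IR hearts, against 2561, 2692 and 3110.3 CPM in Sham hearts. In both, every injured library was below every Sham library, as in 4.13% of all genes tested, and neither passed (log2 fold change -0.24, SE 0.064, adjusted p = 0.0638 for Atp2a2 and log2 fold change -0.30, SE 0.083, adjusted p = 0.073 for Pln). Atp2a2 passed in 1 fit that left out 1 library (adjusted p = 0.0137) and Pln in 0.

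Genes of the working sarcomere had a median log2 fold change of 0.025 over 20 tested. Tnni3, cardiac troponin I, was lower, with 2031, 2194 and 2052 CPM in IR virus hearts and 2289, 2064 and 2116 CPM in IR hearts, against 2600.1, 2649.8 and 2521 CPM in Sham hearts (log2 fold change -0.29, SE 0.058, adjusted p = 0.0153), and did not pass without Sham replicate 1 or Sham replicate 2 (adjusted p at most 0.058). Mybpc3, cardiac myosin-binding protein C, was higher (log2 fold change 0.36, adjusted p = 0.0478), a call lost in 7 of the 9 fits that left out 1 library, all but those without IR replicate 3 and Sham replicate 2 (adjusted p at most 0.15). None of the 20 passed with the alike libraries averaged. Its skeletal relative Mybpc2 had 19.9, 19.3 and 20.9 CPM in IR virus hearts and 17.3, 18.5 and 15.1 CPM in IR hearts, against 10.4, 12.0 and 10.4 CPM in Sham hearts, with a wider gap between the groups. For Mybpc2 the log2 fold change was 0.76 (SE 0.10, adjusted p = 0.0015), and 0.71 with the alike libraries averaged (adjusted p = 0.0514).

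Among adrenergic and angiotensin signalling genes, 2 of 23 rose (8.7%, against 1.89% of all genes tested) and 1 fell (4.35%, against 0.961%). Edn3 (chr2:174760619-174784042, plus strand), an endothelin ligand, had 4.23, 5.63 and 4.84 CPM in IR virus hearts and 4.98, 5.20 and 6.66 CPM in IR hearts, against 0.977, 1.46 and 1.74 CPM in Sham hearts, and was as high in IR virus replicate 2 and IR replicate 3 as in the other injured hearts. For Edn3 the log2 fold change was 1.93 (SE 0.20, adjusted p = 0.000241), and 2.04 with the alike libraries averaged (adjusted p = 0.013). Grk5, a kinase that desensitises adrenergic receptors, was higher (log2 fold change 0.49, adjusted p = 0.0448) and passed without IR virus replicate 2 or without Sham replicate 3, and in none of the other 7 fits that left out 1 library (adjusted p at most 0.115). Rgs2, which dampens Gq signalling, was lower (log2 fold change -0.42, adjusted p = 0.0246) and did not pass without IR virus replicate 3, IR replicate 1 or 2, or Sham replicate 1 or 3 (adjusted p at most 0.0869). With the alike libraries averaged Edn3 passed and no other of the 23.

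Genes of mitochondrial fuel use had mostly small negative fold changes. Of 31 genes of fatty acid uptake and oxidation, 24 had negative fold changes (median -0.18), as did 7764 of all 15393 genes tested, and 4 fell (12.9%, against 0.961% of all): Etfa and Etfb, the subunits of the electron transfer flavoprotein, Acaa2, the last enzyme of beta-oxidation, and Decr1. Etfb had 54.9, 58.9 and 55.6 CPM in IR virus hearts and 55.2, 54.7 and 50.3 CPM in IR hearts, against 71.7, 69.1 and 64.1 CPM in Sham hearts. For Etfb the log2 fold change was -0.31 (SE 0.066, adjusted p = 0.0195). Acaa2 had 461, 462 and 419.6 CPM in IR virus hearts and 453, 443 and 394 CPM in IR hearts, against 545, 552 and 519 CPM in Sham hearts. For Acaa2 the log2 fold change was -0.30 (SE 0.063, adjusted p = 0.0213). The count of 4 was 2 or 1 in 8 of the 9 fits that left out 1 library, the exception being the fit without IR replicate 3, and 0 with the alike libraries averaged. Without Sham replicate 3, 2 genes of the list were called higher and 2 lower. Etfb did not pass without Sham replicate 1 or 2 (adjusted p at most 0.0733), and Acaa2 did not pass without IR virus replicate 3 or Sham replicate 1 or 2 (adjusted p at most 0.0783).

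In the TCA cycle list 23 of 26 genes had negative fold changes (median log2 fold change -0.16), none passed in edgeR, 16 had an unadjusted p under 0.05 and DESeq2 called 5. All 44 nuclear genes of the respiratory chain were negative (median -0.10), none passed in edgeR, 17 had an unadjusted p under 0.05 and DESeq2 called 7. All 13 protein-coding transcripts of the mitochondrial genome were negative as well (median -0.18), none passed in edgeR, 7 had an unadjusted p under 0.05 and DESeq2 called 1. Sdha, a subunit of succinate dehydrogenase, had 1239, 1294 and 1245 CPM in IR virus hearts and 1291, 1272 and 1242 CPM in IR hearts, against 1390.4, 1433 and 1476 CPM in Sham hearts, with the groups apart and no call (log2 fold change -0.18, SE 0.052, adjusted p = 0.085), and mt-Nd5, a subunit of complex I, had 54520.0 ± 3345 CPM in injured hearts and 61094 ± 4750.0 CPM in Sham hearts. For mt-Nd5 the log2 fold change was -0.16 (adjusted p = 0.258). Groups apart with injured hearts lower, as in Sdha, were found in 4.13% of all genes tested. Genes of the mitochondrial genome were lowest in IR virus replicate 1, whose list median was -0.40, against -0.19 to -0.12 in the other injured hearts. With these transcripts left out of the counts and the library sizes, 451 genes passed.

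Among the regulators, Klf15, a transcription factor of fuel use, had 26.3, 24.2 and 24.0 CPM in IR virus hearts and 23.7, 24.3 and 27.9 CPM in IR hearts, against 38.2, 28.0 and 34.6 CPM in Sham hearts. For Klf15 the log2 fold change was -0.42 (SE 0.092, adjusted p = 0.023). Ppargc1a, the PGC-1alpha coactivator of mitochondrial genes, had 121, 122 and 136 CPM in IR virus hearts and 129, 140.0 and 153 CPM in IR hearts, against 185, 152 and 194 CPM in Sham hearts. For Ppargc1a the log2 fold change was -0.41 (SE 0.089, adjusted p = 0.0234). Klf15 did not pass without IR virus replicate 3, IR replicate 1 or 2, or Sham replicate 1 or 3, and Ppargc1a without IR virus replicate 3, IR replicate 1 or Sham replicate 1 or 3 (adjusted p at most 0.113 for Klf15 and 0.109 for Ppargc1a). Of the 16 mitochondrial regulators these 2 passed (12.5% lower, against 0.961% of all genes tested), and none with the alike libraries averaged. Ppara, the fatty acid receptor, missed the threshold (log2 fold change -0.46, adjusted p = 0.0533), though it passed in 3 fits that left out 1 library (lowest adjusted p = 0.0191). In glycolysis, Pfkp, the platelet form of phosphofructokinase, had 62.2, 59.5 and 58.7 CPM in IR virus hearts and 61.4, 60.9 and 65.1 CPM in IR hearts, against 33.4, 48.9 and 39.8 CPM in Sham hearts. For Pfkp the log2 fold change was 0.59 (SE 0.097, adjusted p = 0.00445), and 0.60 with the alike libraries averaged (adjusted p = 0.1). Pfkfb1, which sets the level of its activator, had 11.2, 17.6 and 12.7 CPM in IR virus hearts and 12.7, 13.6 and 15.6 CPM in IR hearts, against 25.6, 21.1 and 24.3 CPM in Sham hearts. For Pfkfb1 the log2 fold change was -0.77 (SE 0.12, adjusted p = 0.00312), and -0.64 with the alike libraries averaged (adjusted p = 0.0939). Of 21 ketone and branched-chain amino acid genes 1 rose (4.76%, against 1.89% of all genes tested) and 2 fell (9.52%, against 0.961%), and 4 fell without Sham replicate 2 and 1 without Sham replicate 3. Aldh6a1, a dehydrogenase of valine breakdown, fell (log2 fold change -0.35, adjusted p = 0.0114) and did not pass without Sham replicate 3 (adjusted p = 0.0606). Bckdhb, a subunit of the branched-chain keto acid dehydrogenase, fell, with 39.5 ± 2.06 CPM in injured hearts and 51.1 ± 1.48 CPM in Sham hearts. For Bckdhb the log2 fold change was -0.37 (adjusted p = 0.00657), and -0.38 with the alike libraries averaged (adjusted p = 0.0833). Bdh1, which interconverts ketone bodies, had 114 ± 14.1 CPM in injured hearts and 86.6 ± 7.90 CPM in Sham hearts. For Bdh1 the log2 fold change was 0.39 (adjusted p = 0.0479). The Bdh1 call was lost in 7 of the 9 fits that left out 1 library, all but those without IR replicate 3 and Sham replicate 1 (adjusted p at most 0.149). With the alike libraries averaged none of the 21 passed, nor any of the 26 glycolysis genes. Gapdh, whose many near-identical pseudogene copies can share its reads, had 4.46 ± 0.309 CPM in injured hearts and 7.59 ± 0.761 CPM in Sham hearts, and its call (log2 fold change -0.77, adjusted p = 0.0015; averaged, log2 fold change -0.72, adjusted p = 0.0649) is uncertain.

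Several genes outside these pathways were lower too, and 5 of those that follow passed with the alike libraries averaged. Ano10 (chr9:122175874-122294423, minus strand), of the anoctamin family of channels and scramblases, had 20.96, 19.5 and 20.8 CPM in IR virus hearts and 20.8, 19.97 and 20.98 CPM in IR hearts, against 31.7, 31.9 and 33.0 CPM in Sham hearts, and the other 6 tested anoctamin genes did not pass. For Ano10 the log2 fold change was -0.65 (SE 0.062, adjusted p = 0.000162), and -0.66 with the alike libraries averaged (adjusted p = 0.0167). Ttll1, which adds glutamate chains to tubulin, had 21.9, 21.4 and 21.6 CPM in IR virus hearts and 22.2, 21.2 and 21.2 CPM in IR hearts, against 30.9, 33.0 and 31.4 CPM in Sham hearts. For Ttll1 the log2 fold change was -0.56 (SE 0.061, adjusted p = 0.000368), and -0.57 with the alike libraries averaged (adjusted p = 0.0276). Ces1d, a carboxylesterase that handles lipid esters, had 55.3, 75.9 and 56.0 CPM in IR virus hearts and 57.6, 54.3 and 65.5 CPM in IR hearts, against 145, 109.5 and 107 CPM in Sham hearts. For Ces1d the log2 fold change was -0.99 (SE 0.11, adjusted p = 0.000595), and -0.87 with the alike libraries averaged (adjusted p = 0.0426). Cngb3, a cyclic nucleotide-gated channel subunit known from cone cells, had 4.43 ± 0.421 CPM in injured hearts and 9.12 ± 1.73 CPM in Sham hearts. For Cngb3 the log2 fold change was -1.05 (adjusted p = 0.000728), and -1.001 with the alike libraries averaged (adjusted p = 0.0426). Abca12, a lipid transporter known from skin, had 7.84 ± 0.795 CPM in injured hearts and 14.4 ± 1.44 CPM in Sham hearts. For Abca12 the log2 fold change was -0.87 (adjusted p = 0.000511), and -0.84 with the alike libraries averaged (adjusted p = 0.0402). Aqp4, a water channel, had 9.26 ± 1.67 CPM in injured hearts and 17.0 ± 3.11 CPM in Sham hearts. For Aqp4 the log2 fold change was -0.88 (adjusted p = 0.00455), and -0.96 with the alike libraries averaged (adjusted p = 0.07). Among the largest negative fold changes were also Cacng6 and Rasef (-1.11 and -0.83), of which Cacng6 did not pass without IR virus replicate 3, IR replicate 1 or 2, or Sham replicate 1, and Rasef without Sham replicate 1 or 3 (adjusted p at most 0.164 and 0.0765). Neither passed with the alike libraries averaged (adjusted p = 0.264 and 0.11).

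Some immune genes were higher 5 weeks after surgery. Of 27 macrophage and monocyte genes 3 rose (11.1%, against 1.89% of all genes tested), namely Gpnmb, Lgals3 and Lyz2, and none fell. The list was mixed, with 21 positive and 6 negative fold changes (median 0.14, lowest -0.80). At an unadjusted p under 0.05 in edgeR, 7 were higher and 3 lower. Gpnmb, a glycoprotein of lipid-laden macrophages, had 5.29, 4.21 and 3.84 CPM in IR virus hearts and 4.93, 4.95 and 2.54 CPM in IR hearts, against 1.69, 1.38 and 0.707 CPM in Sham hearts. For Gpnmb the log2 fold change was 1.74 (SE 0.27, adjusted p = 0.00294). Lgals3, galectin 3, had 5.02, 3.79 and 4.64 CPM in IR virus hearts and 4.50, 5.12 and 1.68 CPM in IR hearts, against 1.24, 0.860 and 1.65 CPM in Sham hearts. For Lgals3 the log2 fold change was 1.73 (SE 0.32, adjusted p = 0.00844). In Lgals3, IR replicate 3 lay just above Sham replicate 3. Without Sham replicate 1 the count was 7, and none passed with the alike libraries averaged. Genes of the list were also called lower in some fits, 2 without Sham replicate 2 and 1 without IR replicate 3 or Sham replicate 3. Lyz2, lysozyme (log2 fold change 0.40, adjusted p = 0.0414), passed without Sham replicate 1 and in none of the other 8 fits that left out 1 library (adjusted p at most 0.135). The 4 macrophage markers Cd68, Adgre1, Csf1r and C1qa summed to 64.5 to 76.3 CPM in injured hearts and 51.4 to 87.6 CPM in Sham hearts, so these ranges overlapped. Sham replicate 1 stood with the injured hearts in immune genes: its list median was 0.41 for macrophage genes, where injured hearts had 0.064 to 0.32, and 0.34 for MHC genes, where they had 0.24 to 0.47.

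All 19 tested genes of MHC and antigen presentation had positive fold changes (median 0.31), and 2 rose (10.5%, against 1.89% of all genes tested). These were Nlrc5, the activator of MHC class I genes (log2 fold change 0.64, adjusted p = 0.0124) and the peptide transporter Tap1 (log2 fold change 0.52, adjusted p = 0.0256). The count was 9 without Sham replicate 1, 1 without IR virus replicate 1 or 3, and 0 without Sham replicate 2 or with the alike libraries averaged. Of 30 interferon-stimulated genes 27 were positive, none passed in edgeR, 8 had an unadjusted p under 0.05 and DESeq2 called 1. Among complement genes, Masp1, a protease of the lectin pathway, had 14.3 ± 1.68 CPM in injured hearts and 8.62 ± 0.844 CPM in Sham hearts. For Masp1 the log2 fold change was 0.73 (adjusted p = 0.00305), and 0.62 with the alike libraries averaged (adjusted p = 0.0915). Among chemokines and receptors, Cx3cl1, fractalkine, had 7.57 ± 0.864 CPM in injured hearts and 4.54 ± 0.268 CPM in Sham hearts (log2 fold change 0.74, adjusted p = 0.00393; averaged, log2 fold change 0.71, adjusted p = 0.0544) and Cxcr4 rose (log2 fold change 0.60, adjusted p = 0.0244), a call lost without IR virus replicate 1 or 3, IR replicate 1 or 2, or Sham replicate 1 (adjusted p at most 0.0824). These were the 2 of 23 chemokine genes that rose (8.7%, against 1.89% of all genes tested), and none passed with the alike libraries averaged.

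Lymphatic vessel genes rose in part, with 4 of 12 higher (33.3%, against 1.89% of all genes tested), none lower and a median of 0.37. The 1 negative fold change of the list was -0.66, with an unadjusted p under 0.05 in edgeR. Flt4 (chr11:49609263-49652739, plus strand), the receptor for the lymphatic growth factors, had 24.7, 21.5 and 21.6 CPM in IR virus hearts and 19.9, 20.7 and 20.1 CPM in IR hearts, against 15.8, 15.3 and 13.3 CPM in Sham hearts, with the groups apart. For Flt4 the log2 fold change was 0.53 (SE 0.088, adjusted p = 0.00479), and 0.51 with the alike libraries averaged (adjusted p = 0.07). Sema3d, a secreted semaphorin, had 7.69 ± 1.52 CPM in injured hearts and 3.83 ± 0.766 CPM in Sham hearts. For Sema3d the log2 fold change was 1.01 (adjusted p = 0.00753). Itga9, an integrin of lymphatic valves, had 93.2 ± 5.11 CPM in injured hearts and 70.8 ± 10.7 CPM in Sham hearts. For Itga9 the log2 fold change was 0.40 (adjusted p = 0.023). Mmrn1 was the fourth. Itga9 did not pass without IR virus replicate 3 or Sham replicate 1 or 3 (adjusted p at most 0.0872). The count of 4 was 2 without IR virus replicate 3 or Sham replicate 1, 6 without IR replicate 3, and 0 with the alike libraries averaged. Without IR replicate 3, and also without Sham replicate 2, 1 gene of the list was called lower. Of 25 genes of blood vessel endothelium 1 rose (4%, against 1.89% of all genes tested), Vegfd, a lymphatic growth factor (log2 fold change 0.64, adjusted p = 0.0391), which did not pass without IR virus replicate 1 or 3, IR replicate 1 or 2, or Sham replicate 2 or 3 (adjusted p at most 0.144), nor with the alike libraries averaged (adjusted p = 0.334). The 4 endothelial markers Pecam1, Cdh5, Kdr and Vwf summed to 615 to 715 CPM in injured hearts and 567 to 687 CPM in Sham hearts.

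Cartilage and bone genes that scars also express rose in 3 of 7 cases (42.9%, against 1.89% of all genes tested), Comp, Mgp and Runx2, whichever 1 library was left out, and of these Comp passed with the alike libraries averaged. Runx2 (chr17:44495987-44814797, minus strand), the transcription factor of bone formation, had 1.72, 1.75 and 2.42 CPM in the IR virus libraries, 1.80, 1.69 and 1.81 CPM in the IR libraries and 0.901, 0.688 and 0.613 CPM in the Sham libraries. For Runx2 the log2 fold change was 1.32 (SE 0.21, adjusted p = 0.00364), and 1.29 with the alike libraries averaged (adjusted p = 0.0544). Mgp, an inhibitor of calcification, had 128, 104 and 125 CPM in IR virus hearts and 136, 132 and 85.9 CPM in IR hearts, against 83.1, 64.8 and 52.3 CPM in Sham hearts. For Mgp the log2 fold change was 0.82 (SE 0.15, adjusted p = 0.00886), and 0.67 with the alike libraries averaged (adjusted p = 0.208). Gpx3, a secreted glutathione peroxidase, was the single gene of 23 in the antioxidant and metallothionein list to pass, with 141, 122 and 123 CPM in IR virus hearts and 124, 125 and 134 CPM in IR hearts, against 95.0, 92.1 and 82.1 CPM in Sham hearts. For Gpx3 the log2 fold change was 0.51 (SE 0.072, adjusted p = 0.00165), and 0.51 with the alike libraries averaged (adjusted p = 0.0426). That 1 call was 4.35% of the list, and genes that rose were 1.89% of all genes tested. In the proliferation list 22 of 23 genes had positive fold changes and none of these passed, with 4 at an unadjusted p under 0.05 and none called by DESeq2, whereas Cenpf, a kinetochore protein, fell, with 34.4, 33.2 and 40.2 CPM in IR virus hearts and 35.4, 36.7 and 18.2 CPM in IR hearts, against 65.7, 61.6 and 81.1 CPM in Sham hearts. For Cenpf the log2 fold change was -1.07 (SE 0.17, adjusted p = 0.00368), and -1.24 with the alike libraries averaged (adjusted p = 0.0547). IR replicate 3 was the lowest of all in Cenpf. No gene passed in edgeR among 24 of the unfolded protein response (4 at an unadjusted p under 0.05, 0 called by DESeq2), 19 of the circadian clock (4 and 2) and 17 p53 targets (6 and 0). Of 18 atrial genes, Nppa, Pam, Dkk3 and Bmp10 rose (22.2%, against 1.89% of all genes tested) and Kcnj3 fell (5.56%, against 0.961%), and Nppa alone passed with the alike libraries averaged. Pam, the enzyme that amidates peptides, had 920.1, 918 and 959 CPM in IR virus hearts and 962, 972 and 967 CPM in IR hearts, against 721, 772 and 708 CPM in Sham hearts. For Pam the log2 fold change was 0.37 (SE 0.056, adjusted p = 0.00258), and 0.37 with the alike libraries averaged (adjusted p = 0.078). Sham replicate 3, low in atrial muscle genes, was among the Sham libraries of these calls too.

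**Figure D5:**
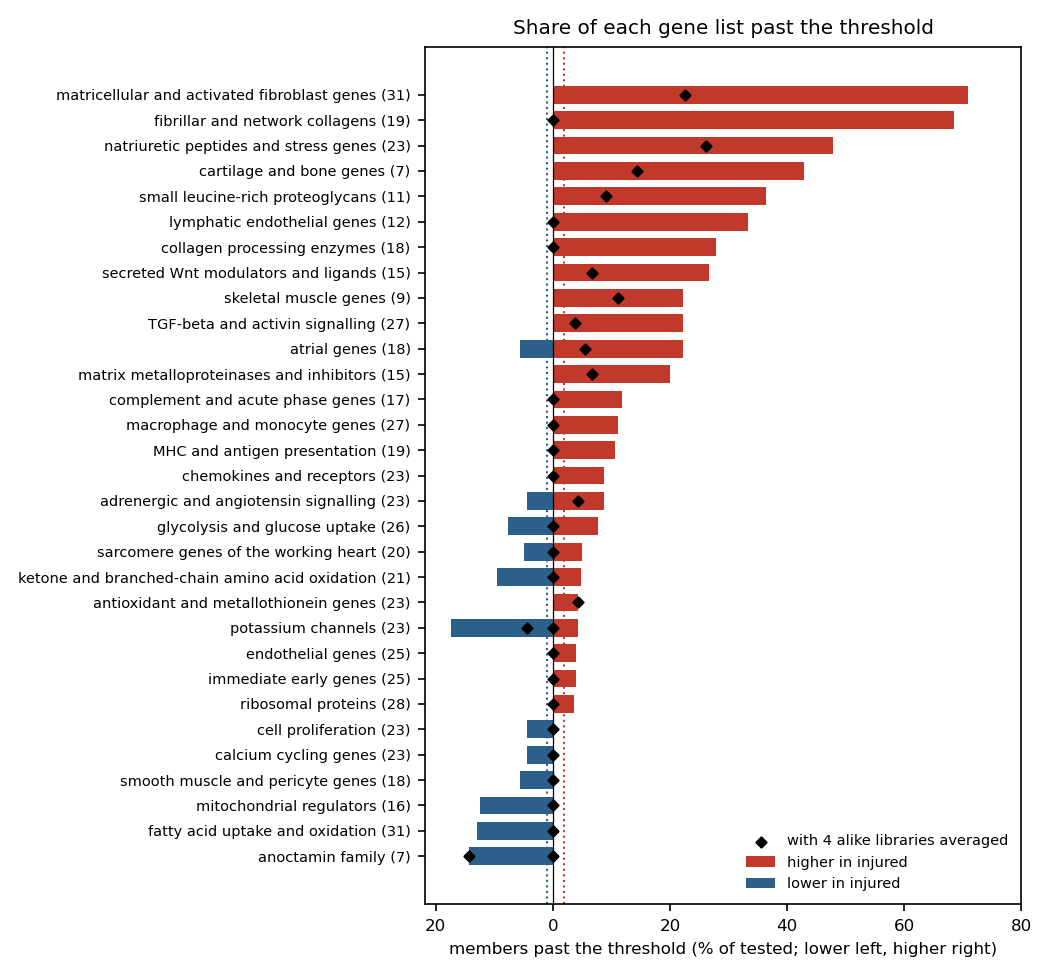
Share of the tested members of each gene list (number in brackets) that passed the test, lower in injured hearts to the left and higher to the right, for lists with at least 1 call and at least 5 tested members. Dotted lines are the shares over all genes tested (1.89% higher, 0.961% lower), and diamonds give the shares with the 4 alike libraries averaged, which is 0 for the collagens and 7 of 31 for the matricellular genes.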

How the data were processed

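RNA of whole mouse hearts was sequenced with poly(A) selection. Reads were trimmed with Trimmomatic 0.39, aligned to mm10 with HISAT2 2.1.0 and counted with featureCounts 1.6.2, per the submitters' processing notes; for the annotation and the use of strand, nothing is given in the sources used here. The deposited values are raw counts per gene symbol, 1 table per library, with 53278 symbols each. Reads shared by overlapping genes or near-identical copies cannot be told apart in such counts.

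From the 9 libraries, low genes were removed with filterByExpr, library sizes were scaled by TMM, and injured hearts were tested against Sham hearts with edgeR 4.0.16 (R 4.3.3), using the quasi-likelihood test with Benjamini-Hochberg adjustment over all genes tested and a threshold of 0.05, without covariates. Every adjusted p comes from that test. The standard error is the fold change divided by the root of F. Levels are CPM after TMM scaling. IR virus was set against IR in a fit with a mean for each group. Alternatives included DESeq2 1.42.0, other filters and scalings, leaving out each library and a replicate block; averaging or leaving out the 4 alike libraries was chosen after seeing the data. The test was tried on simulated counts.

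The members and the 47 gene lists were chosen with earlier results of these data known, so list counts are descriptions and carry no test of their own. Genes named were Camk2d, the 8 largest changes and 4 smallest p-values in each direction (mean of at least 1 CPM, groups not overlapping), up to 3 members of each list with the smallest p, the mitochondrial transcripts and 7 genes known from earlier results; other members of lists are named for completeness of a count, and genes outside the rule are marked as such. Positions are from GENCODE M21 on GRCm38, and 15115 of the genes tested were found there. The depth, about equal in all libraries, limits genes near 1 CPM most. A member of the lists is not reported here.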

Additional observations from a re-analysis of the deposited data

Results flagged for a closer look

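In 24 of 156 values examined, the highest or lowest of the 6 injured hearts stood far from the other 5 by Dixon's criterion; chance gives about 1 in 20, or 7.8. IR replicate 3 was the library set apart in 10 of the 24. It was lowest in Nppa (73.8 CPM), Myh7 (316 CPM) and Cenpf (18.2 CPM), highest in Jph1 (31.0 CPM), Rgs2 (34.7 CPM), Cngb3 (5.25 CPM), Bdh1 (141 CPM) and Gata6 (45.7 CPM), and highest in the list median of the unfolded protein response (0.17 on the log2 scale, against the Sham mean). It was also lowest in the single tested lung, liver and thymus gene (-0.86).

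IR virus replicate 1 was highest in Acta1 (410.5 CPM), Cx3cl1 (9.21 CPM) and Flt4 (24.7 CPM) and lowest in Kcnd2 (27.4 CPM) and Atp5c1 (769.9 CPM). Its list medians stood apart for the mitochondrial genome (-0.40), for adrenergic and angiotensin signalling (0.026) and for p53 targets (0.12). IR virus replicate 2 was lowest in Nppb (110.4 CPM) and highest in Camk2b (16.3 CPM), Ppp1r3b (39.5 CPM) and the clock list (0.22). IR virus replicate 3 was highest in Runx2 (2.42 CPM) and IR replicate 1 in Bckdhb (43.4 CPM). The causes were not tested.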

How the results depend on the processing

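The count of 439 genes, injured against Sham, moved by over 1.5 times to 858 without a filter, 739 with DESeq2, 3 with all 13 libraries in the fit, 115 with IR hearts alone and 203 with IR virus hearts alone against Sham, and, in alternatives chosen after seeing the data, 45 and 143 with 4 or 3 alike libraries averaged and 15 with the 4 left out. Leaving out 1 library gave 273 to 684 (286 without IR replicate 1, 684 without IR replicate 3, 273 without IR virus replicate 3). It stayed within 1.5 times, at 394 to 462, with DESeq2 size factors, a filter of 1 CPM in 3 libraries, robust dispersion, no mitochondrial transcripts or a mean each for IR virus and IR. IR virus against IR gave 43 without a filter and 0 to 1 when 1 library was left out. Causes were not tested. Replicate numbers did not pair the libraries (correlations of same-numbered pairs -0.14 to 0.23, 1 of 9 over 0.1), and with a replicate block 398 genes passed injured against Sham and 0 passed IR virus against IR. Of 109 genes examined singly 92 passed, 59 of them whichever 1 library was left out and 25 with the 4 alike libraries averaged. With the 3 closest libraries averaged, IR virus replicate 3 and IR replicates 1 and 2, 53 of the 92 passed. None of the 92 changed direction. Myh6, which did not pass, changed sign with IR virus hearts alone (0.058), without the alike libraries (0.042) and without Sham replicate 2 (0.077), its range with 1 library left out being -0.18 to 0.077. The 3 Sham libraries limit the precision of every comparison with them.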

Other observations

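The genes here were chosen after their values were seen. Among higher genes, Lrp8, a lipoprotein receptor, had 2.16, 1.63 and 1.84 CPM in IR virus hearts and 2.06, 2.24 and 1.46 CPM in IR hearts, against 0.563, 0.301 and 0.472 CPM in Sham hearts. For Lrp8 the log2 fold change was 2.07 (SE 0.25, adjusted p = 0.000732), and 1.93 with the alike libraries averaged (adjusted p = 0.036). Dio2, which activates thyroid hormone, had 10.03, 4.71 and 9.44 CPM in IR virus hearts and 11.2, 10.3 and 5.93 CPM in IR hearts, against 1.35, 1.98 and 2.22 CPM in Sham hearts. For Dio2 the log2 fold change was 2.23 (SE 0.29, adjusted p = 0.00114), and 1.93 with the alike libraries averaged (adjusted p = 0.0426). Nox4, an NADPH oxidase, had 6.07, 5.96 and 8.52 CPM in IR virus hearts and 7.12, 7.79 and 4.17 CPM in IR hearts, against 2.55, 1.72 and 1.56 CPM in Sham hearts. For Nox4 the log2 fold change was 1.75 (SE 0.23, adjusted p = 0.00124), and 1.57 with the alike libraries averaged (adjusted p = 0.0426). All 3 passed with the alike libraries averaged and whichever 1 library was left out.

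Among lower genes, Ift81, of intraflagellar transport, had 39.1, 38.4 and 45.1 CPM in IR virus hearts and 48.3, 46.1 and 47.0 CPM in IR hearts, against 62.7, 71.6 and 72.0 CPM in Sham hearts. For Ift81 the log2 fold change was -0.64 (SE 0.085, adjusted p = 0.00125), and -0.67 with the alike libraries averaged (adjusted p = 0.036). Cep128, a centriole protein, had 11.8, 10.3 and 11.2 CPM in IR virus hearts and 12.9, 13.5 and 11.7 CPM in IR hearts, against 20.6, 17.2 and 21.97 CPM in Sham hearts. For Cep128 the log2 fold change was -0.74 (SE 0.098, adjusted p = 0.00125), and -0.80 with the alike libraries averaged (adjusted p = 0.036). Both passed whichever 1 library was left out. Ppp1r3a, a targeting subunit of glycogen phosphatase, had 214 ± 33.8 CPM in injured hearts and 325 ± 76.0 CPM in Sham hearts. For Ppp1r3a the log2 fold change was -0.60 (adjusted p = 0.0275). Ppp1r3b had 30.2 ± 4.63 CPM in injured hearts and 43.3 ± 9.26 CPM in Sham hearts. For Ppp1r3b the log2 fold change was -0.52 (adjusted p = 0.0475). Phkg1, of phosphorylase kinase, had 21.4 ± 2.42 CPM in injured hearts and 30.9 ± 5.68 CPM in Sham hearts. For Phkg1 the log2 fold change was -0.53 (adjusted p = 0.0202). Phkg1 did not pass without Sham replicate 1 (adjusted p = 0.0966), Ppp1r3a did not pass without IR virus replicate 1 or 3, IR replicate 1 or 2, or Sham replicate 1 or 3, and Ppp1r3b passed without IR virus replicate 2 or Sham replicate 3 and in no other fit that left out 1 library. None of these 3 passed with the alike libraries averaged (adjusted p = 0.369 for Ppp1r3a, 0.414 for Ppp1r3b and 0.254 for Phkg1).

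The receptors Lepr (log2 fold change -0.82, adjusted p = 0.00439), Ghr (log2 fold change -0.37, adjusted p = 0.00994) and Lifr (log2 fold change -0.33, adjusted p = 0.036) and the transcription factors Gata6 (log2 fold change -0.45, adjusted p = 0.00169) and Hey2 (log2 fold change -0.49, adjusted p = 0.0244) were lower. Lifr passed without IR replicate 3 or Sham replicate 2 and in no other such fit, Ghr did not pass without Sham replicate 3, and Hey2 did not pass without IR replicate 2 or Sham replicate 3. Rpl3l, the ribosomal protein particular to striated muscle, had 101 ± 13.4 CPM in injured hearts and 139 ± 10.2 CPM in Sham hearts (log2 fold change -0.46, adjusted p = 0.0213), while its paralogue Rpl3 had 44.0 ± 3.002 CPM in injured hearts and 35.8 ± 1.43 CPM in Sham hearts (log2 fold change 0.29, adjusted p = 0.0467), though the 2 paralogues and Rpl3 pseudogenes can share reads. Rpl3l did not pass without IR virus replicate 3, IR replicate 1 or Sham replicate 2, and Rpl3 passed without IR replicate 3 and in no other such fit. With the alike libraries averaged none of Lepr, Ghr, Lifr, Gata6, Hey2, Rpl3l and Rpl3 passed. Dennd2d, a regulator of vesicle traffic, was carried by 1 library, with 0.980, 0.917 and 0.793 CPM in IR virus hearts and 0.729, 1.18 and 0.645 CPM in IR hearts, against 19.7, 0.946 and 1.13 CPM in Sham hearts, and its log2 fold change of -3.08 was -0.24 without Sham replicate 1.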
